A study of Mus musculus with 6 samples.

Results

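Genes of uridine and pyrimidine salvage and breakdown, with the uridine phosphorylase gene Upp1 at their centre, were followed in RNA of thymic tuft cells. The 10 genes (Upp1, Upp2, Tymp, Uck1, Uck2, Uckl1, Cda, Dpyd, Dpys and Upb1) were chosen by name, and all 10 were matched among the 55471 genes of the deposited table. The set was put together around Upp1 with its difference between the groups of these libraries already known. The differences of the 10 genes between the groups are therefore given as a description, without a test.

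L1CAM+ tuft cells were sorted from the thymus of mice that all carried the floxed Ikzf1 gene (Ikzf1fl/fl), which encodes the zinc finger protein Ikaros. Foxn1-Cre (-) animals kept the floxed gene, and Foxn1-Cre (+) animals carried a Cre recombinase driven by Foxn1, a transcription factor gene of thymic epithelium. Each genotype had 3 samples. The deposited columns Ko1 to Ko3 belonged to the genotype labelled KO, the Foxn1-Cre (+) mice, and the columns Het1 to Het3 were matched to the remaining genotype, labelled WT, by elimination. No column could be tied to a single sample. The labels do not say whether the samples came from separate animals, so p-values measure only the spread between these samples, and the age of the mice is not given in the sources used here. Foxn1 drives the recombinase in thymic epithelium as a whole, not in tuft cells alone.

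Tuft cells are chemosensory epithelial cells that resemble taste cells, and the thymic medulla holds them among its mimetic cells. Pyrimidine nucleotides are made either from simple precursors or by salvage of uridine and cytidine. In salvage, cytidine deaminase turns cytidine into uridine, and uridine and cytidine kinases add a phosphate to the nucleoside. In breakdown, uridine phosphorylase releases uracil and ribose phosphate from uridine, and dihydropyrimidine dehydrogenase, dihydropyrimidinase and beta-ureidopropionase then degrade uracil step by step to beta-alanine.

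Library totals recovered from the deposited values ranged from 12238428 to 31435787 reads. All 15 tuft cell markers examined were detected, and their summed normalized count ranged from 94085 to 147387 in Het and from 137775 to 159455 in Ko. Pou2f3, the factor that defines tuft cells, had normalized counts of 2041 to 2750 in Het and 2482 to 3090 in Ko. Ikzf1 itself had normalized counts of 301, 187 and 273 in Het1 to Het3 and of 1572, 1463 and 1717 in Ko1 to Ko3. The value was thus higher in each library labelled Ko, the reverse of what the label names, and the counts, taken over all its exons, say nothing of the part between the lox sites. All directions below are therefore stated for the libraries labelled Ko. Counts between replicates differed by more than sampling noise in every pair within a group, with a chi-square per degree of freedom of 56.9 to 134.

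The sequences ahead of the start sites of the 4 tested members whose Het and Ko values did not overlap are shown here, because these are the members the description turns on. They are the 250 bases before RefSeq starts in GRCm38.p6, written 5′ to 3′ on the strand of the gene, with each GGGAA in capitals (TTCCC where it lies on the other strand). GGGAA is the core that Ikaros is known to bind. RefSeq lists 3 starts for Upp1, of which the most upstream is shown. The windows are Upp1 (chr11:9117758-9118007, plus strand), Upp2 at its upstream start (chr2:58567084-58567333, plus) and its downstream start (chr2:58754934-58755183, plus), Cda (chr4:138367956-138368205, minus) and Upb1 (chr10:75406661-75406910, plus).
Upp1: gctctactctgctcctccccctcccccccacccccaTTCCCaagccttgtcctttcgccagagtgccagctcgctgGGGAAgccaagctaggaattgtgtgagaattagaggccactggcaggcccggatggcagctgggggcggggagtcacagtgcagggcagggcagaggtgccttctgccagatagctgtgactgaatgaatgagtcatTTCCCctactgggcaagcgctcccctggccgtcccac
Upp2, upstream start: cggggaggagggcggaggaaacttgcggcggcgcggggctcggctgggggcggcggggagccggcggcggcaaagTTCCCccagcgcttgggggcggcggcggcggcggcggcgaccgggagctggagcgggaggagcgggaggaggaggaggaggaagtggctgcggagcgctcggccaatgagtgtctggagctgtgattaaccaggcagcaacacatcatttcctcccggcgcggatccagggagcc
Upp2, downstream start: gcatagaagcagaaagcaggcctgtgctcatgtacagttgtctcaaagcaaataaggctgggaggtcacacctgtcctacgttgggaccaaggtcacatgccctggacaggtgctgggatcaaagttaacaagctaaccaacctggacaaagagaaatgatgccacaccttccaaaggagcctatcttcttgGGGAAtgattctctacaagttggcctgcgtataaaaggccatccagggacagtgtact
Cda: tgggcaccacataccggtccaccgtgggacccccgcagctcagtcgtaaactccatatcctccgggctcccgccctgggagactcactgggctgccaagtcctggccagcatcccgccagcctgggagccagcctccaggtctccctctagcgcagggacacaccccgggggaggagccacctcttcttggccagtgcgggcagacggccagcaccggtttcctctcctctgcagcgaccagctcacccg
Upb1: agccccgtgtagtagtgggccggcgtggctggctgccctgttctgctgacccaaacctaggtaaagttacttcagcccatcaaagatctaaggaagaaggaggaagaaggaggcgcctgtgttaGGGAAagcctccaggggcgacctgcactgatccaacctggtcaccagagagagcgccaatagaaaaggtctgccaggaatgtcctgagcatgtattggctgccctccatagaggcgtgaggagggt

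The window of the most upstream Upp1 start held 3 matches to GGGAA, at 214, 174 and 37 bases before the start. The windows of the second and the third start, not printed, held 2 matches each, at 132 and 56 and at 116 and 85 bases, and the second window overlaps the first. The match at 132 bases lies in that overlap and is the same site as the match at 37 bases in the first window. In the printed window 1 match also spelled TGGGAA, a longer form that contains the same letters. Each Upp2 window held 1 match, at 175 bases before the upstream start and 58 before the downstream one. The Upb1 window held 1 match, 126 bases before the start, and the Cda window held none. Among all 32851 windows of this length, 56.2% held at least 1 GGGAA on either strand, with a median of 1 match, and 21.6% held TGGGAA. The octamer ATGCAAAT, the site of POU factors such as Pou2f3, was in none of the windows of the 9 members that have an entry, and in 1.6% of all windows. The Upp2 upstream window was 73.2% G and C and its downstream window 49.2%, against a median of 52.4% over all windows. A match is a string of letters, and binding was not measured here.

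**Figure D1:**
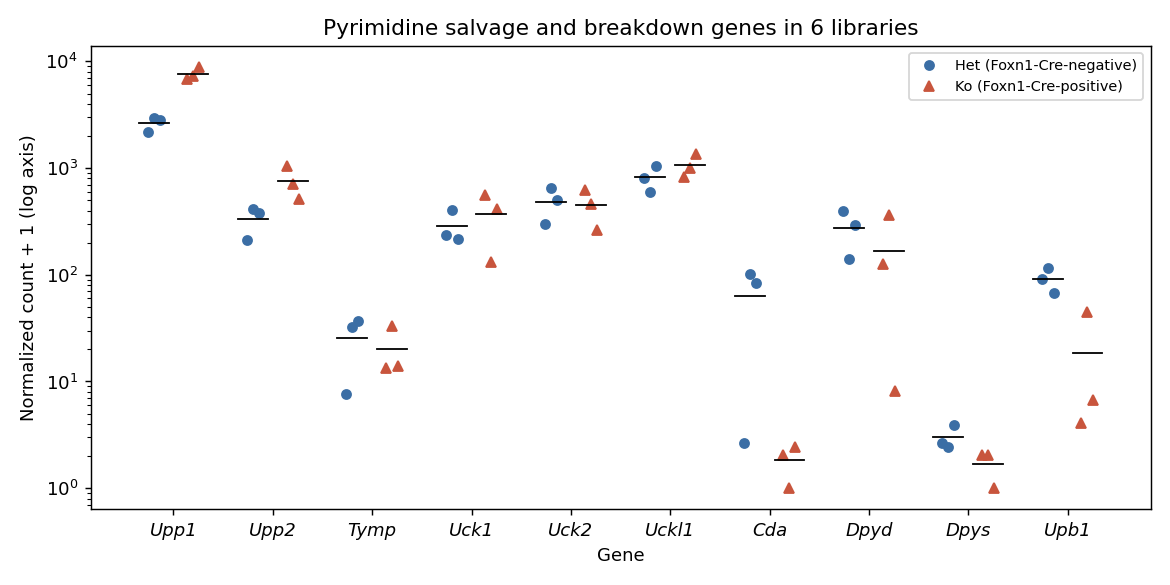
Normalized counts plus 1 of the 10 genes in each of the 6 libraries, on a log axis. Circles are the 3 Het libraries, triangles the 3 Ko libraries and bars the group means. Upp1 is the highest gene and its Ko values, 6879 to 8869, lie above all Het values, while the Ko values of Cda sit at 0 to 1.43.

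Of the phosphorylases, Upp1 and Upp2 were higher in each Ko library than in any Het library, and Tymp, at 36.1 counts or less, was not separated. Upp1, which splits uridine into uracil and ribose phosphate, had normalized counts of 2201, 2922 and 2795 in Het1 to Het3. In Ko1 to Ko3 its normalized counts were 6879, 7327 and 8869. The lowest Ko library thus lay above the highest Het library, and the spread within each group was small, with a coefficient of variation of 14.6% in Het and 13.6% in Ko. The means were 2639 ± 385 and 7692 ± 1044 (SD, n = 3 each), a 2.91-fold ratio and a log2 difference of 1.55 ± 0.18 (SE). Upp1 took between 0.0125% and 0.0163% of all reads in Het and between 0.0399% and 0.0506% in Ko, resting on 9989 reads in Het and 19951 in Ko. Fewer cells that express a gene and less of its RNA per cell cannot be told apart in such bulk samples.

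Upp2 encodes the second uridine phosphorylase, best known from the liver. Its normalized counts were 210.3, 412 and 378 in Het and 1040.2, 702 and 511 in Ko. The groups did not overlap, but the gap was narrower than for Upp1, with Ko3 close to the highest Het library. The means were 333 ± 108 and 751 ± 268 (SD, n = 3 each), and the log2 difference was 1.17 ± 0.40 (SE). The order of the Ko libraries differed between the genes, since Ko1 was highest for Upp2 and lowest for Upp1. The ratio of Upp1 to Upp2, both per kilobase of exon, accordingly ran from 26.2 in Ko1 to 68.6 in Ko3, and from 28.1 to 41.4 in Het.

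Tymp encodes thymidine phosphorylase, which acts on thymidine and deoxyuridine. Its normalized counts were 6.71, 31.2 and 36.1 in Het and 12.3, 32.1 and 12.9 in Ko. The groups overlapped, and the log2 difference was -0.20 ± 1.21 (SE). Tymp shares 42.0% of its exonic bases with Sco2 on the same strand and 26.3% with Ncaph2 on the other, so its counts are uncertain.

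The 3 uridine kinase genes overlapped between the groups. Uck1 and Uck2 encode the enzymes that phosphorylate uridine and cytidine, and Uckl1 a related protein. Uck1 had normalized counts of 233, 403 and 214 in Het and 562, 129 and 410 in Ko, with the lowest and the highest value both in Ko. Uck2 had 296, 643 and 499 in Het and 622, 459 and 259 in Ko. Uckl1, the most abundant of the 3, had 811, 596 and 1043 in Het and 823, 1000 and 1368 in Ko. Log2 differences were 0.19 ± 0.58 for Uck1, -0.12 ± 0.44 for Uck2 and 0.39 ± 0.31 for Uckl1 (SE). The SE was larger than the difference for Uck1 and Uck2, and a little smaller for Uckl1. Uckl1 shares 9.92% of its exonic bases with the antisense gene Uckl1os, and strandedness of the counting is not given in the sources used here.

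Cda, Dpyd, Dpys and Upb1, the deaminase and the breakdown enzymes, had lower means in Ko, each with few reads in part of the libraries. Cda encodes cytidine deaminase. Cda had normalized counts of 1.68, 102 and 82.2 in Het, and of 1.03, 0 and 1.43 in Ko. In reads this was 3, 143 and 57 in Het against 1, 0 and 1 in Ko. Het2 and Het3 carried nearly all of the signal, and Het1 stood above the Ko libraries by a fraction of a count. The rate of Cda reads over the group was 68.8 times higher in Het, with an exact 95% interval of 18.8 to 572 that covers counting error only. The log2 difference was -4.06 ± 1.74 (SE).

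Dpyd encodes dihydropyrimidine dehydrogenase, the first and limiting step of uracil breakdown. It had normalized counts of 397, 139 and 291 in Het and of 124, 366 and 7.16 in Ko, the last from 5 reads. Het and Ko overlapped, and Ko3 set most of the difference. The log2 difference was -1.81 ± 1.19 (SE) with all libraries and -0.24 without Ko3.

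Dpys encodes dihydropyrimidinase, the second step. Its normalized counts were 1.68, 1.42 and 2.89 in Het and 1.03, 1.04 and 0 in Ko, apart by a fraction of a count. It stayed at or below 3 reads in each of the 6 libraries, 7 reads in all of Het and 2 in Ko, under the mean of 10 normalized counts asked of a tested gene. No difference was detectable at this depth.

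Upb1 encodes beta-ureidopropionase, which releases beta-alanine. Its normalized counts were 91.2, 116 and 66.4 in Het and 3.09, 43.5 and 5.73 in Ko. All Ko values lay below all Het values, Ko2 the nearest. The means were 91.1 ± 24.7 and 17.4 ± 22.6 (SD, n = 3 each), 5.22-fold lower in Ko, from 372 and 49 reads. The log2 difference was -3.07 ± 1.17 (SE).

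**Figure D2:**
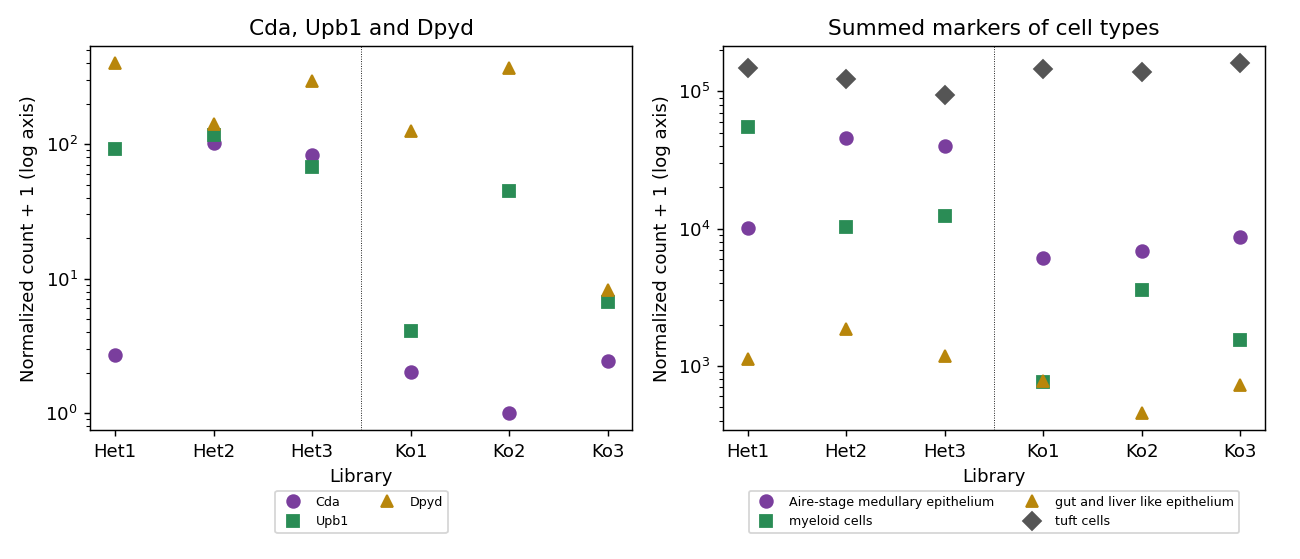
Left, normalized counts plus 1 of Cda, Upb1 and Dpyd in each library, and right, the summed normalized counts plus 1 of marker lists of 4 cell types, both on log axes. Het1 is low for Cda and for the Aire-stage list. The Aire-stage sum, mostly Ubd, is 10162 in Het1 and at least 39676 in the other Het libraries. Tuft cell sums reach 94085 or more in all 6 libraries.

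Marker lists of several other cell types had lower sums in Ko. All 5 markers of Aire-stage medullary epithelium had lower means in Ko, none of them called by limma, and their summed counts ranged from 10162 to 45342 in Het and from 6062 to 8652 in Ko. Most of each sum was Ubd, at 8249, 40719 and 35545 in Het and 4090 to 7394 in Ko. Aire had normalized counts of 147, 1536 and 1656 in Het1 to Het3 and of 52.5, 441 and 96.0 in Ko, so Het1 was low for both Aire and Cda. Of the 10 myeloid markers 9 had lower means in Ko, 1 of them called by limma, with sums of 10355 to 55094 in Het and 763 to 3579 in Ko. Myeloid markers differed in their order over the Het libraries. The macrophage marker Adgre1 was at 7.27, 193 and 50.5 in Het and at 4.12, 2.07 and 0 in Ko. Lyz2, most of the myeloid sum in Het1, was highest there, at 53300, 3666 and 8729 in Het and 497, 2900 and 1130 in Ko. All 7 markers of gut and liver like epithelium also had lower means in Ko, with sums of 1125 to 1869 in Het and 454 to 777 in Ko. No marker of these 3 lists was at 0 in all libraries. Of the 4 cortical epithelial markers 3 had lower means in Ko and 1 a higher one, none called by limma, with overlapping sums. Among the lower was Foxn1, which drives the recombinase, at 240, 442 and 328 in Het and 110, 108 and 85.9 in Ko. Other lists did not follow this direction. Higher means in Ko were seen for 6 of 7 fibroblast and endothelial markers and 7 of 10 thymocyte markers. Keratinocyte markers were split 3 to 3, and sums overlapped in all 3 lists. The fibroblast and endothelial sum was high in Ko2 alone, at 2496, against 556 in Ko1, 317 in Ko3 and 353 to 886 in Het. Only 5 of the 10 thymocyte markers had a mean of at least 10. The B cell sum was 2052 to 3077 in Het and 4682 to 5722 in Ko, nearly all of it Cd79b. The part of such cells in the values of Cda, Dpyd and Upb1 was not tested. Beside Upp1 and Upp2, 14 of the 15 tuft cell markers had higher means in Ko, 1 of them called by limma, the prostaglandin synthase gene Ptgs1. Only Ptgs1 and Ltc4s had all Ko values above all Het values. Ratios of the Ko mean to the Het mean ran from 0.976 for Il25 to 2.41 for Ptgs1. The part of a higher share of tuft cell RNA in the Upp1 and Upp2 values was not tested.

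Across the table, limma on log2(normalized count + 1) with Benjamini-Hochberg adjustment at 0.05 called 158 of 19416 tested genes, 0.814%, of which 56 were higher and 102 lower in Ko. Among the 10 members 9 had the mean of 10 needed to be tested. Of these, 1 was called, Upp1, and without Het3 limma called no gene at all. Values of Het and Ko did not overlap for 4 of the 9 members, Upp1 and Upp2 above and Cda and Upb1 below, where 18.4% of all tested genes did not overlap. The set was chosen with this contrast known, so nothing is read from either count. In the authors' deposited table, which called 8.19% of the genes with an adjusted p, Upp1 was higher with a log2 fold change of 1.54 and Cda lower with -6.29. The median log2 difference was -0.12 over the 9 members and -0.05 over all tested genes.

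To compare genes, levels were set side by side per kilobase of exon, counting all annotated exons of a gene (7.76 kb for Upp2). Which exons were in use in these libraries was not determined, so the levels and their ratios are approximate. On this scale Upp1 stood apart from the other members in both groups. In Het its mean level was 1346 normalized counts per kilobase, followed by Uckl1 at 176, Uck1 at 103, Uck2 at 87.8, Cda at 59.7, Upp2 at 43.0, Dpyd at 31.1, Upb1 at 13.4, Tymp at 12.1 and Dpys at 0.533. Only Upp1 from Uckl1 and Tymp from Dpys were separated in range, and all other neighbours in this order overlapped over the 3 libraries. In Ko the level of Upp1 was 3922, that of Uckl1 230, Uck1 133, Upp2 96.8 and Uck2 81.8. The remaining members followed at 18.7 for Dpyd, 9.39 for Tymp, 2.57 for Upb1, 0.793 for Cda and 0.184 for Dpys. There the ranges of Upp1 and Uckl1, and of Uck2 and Dpyd, did not overlap. Upp1 made up 70.9% to 73.5% of the summed level of the 10 genes in Het and 84.3% to 88.9% in Ko.

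The wider pyrimidine genes were 58 genes of synthesis, transport and use, listed by function. Of these, 53 were tested, and limma called none. At an unadjusted p under 0.05, 8 were higher and 5 lower in Ko (24.5%, against 13.6% of all tested genes). The edgeR quasi-likelihood test called none, and 0.386% of all genes. DESeq2 called 4 higher and 2 lower, and 6.34% of all genes to which it gave an adjusted p, 371 higher and 747 lower. Differences were positive for 23 and negative for 30, with a median of -0.23. The authors' deposited table called 6 of the 52 with an adjusted p, where it called 8.19% of all genes, and the 6 were all higher in Ko: Dctd, Dut, Slc28a2, Slc29a1, Aldh6a1 and Entpd3. Of these, Dctd overlapped between the groups, at 3.91, 2.13 and 0 in Het and 137, 1.04 and 44.4 in Ko (limma adjusted p = 0.482).

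**Figure D3:**
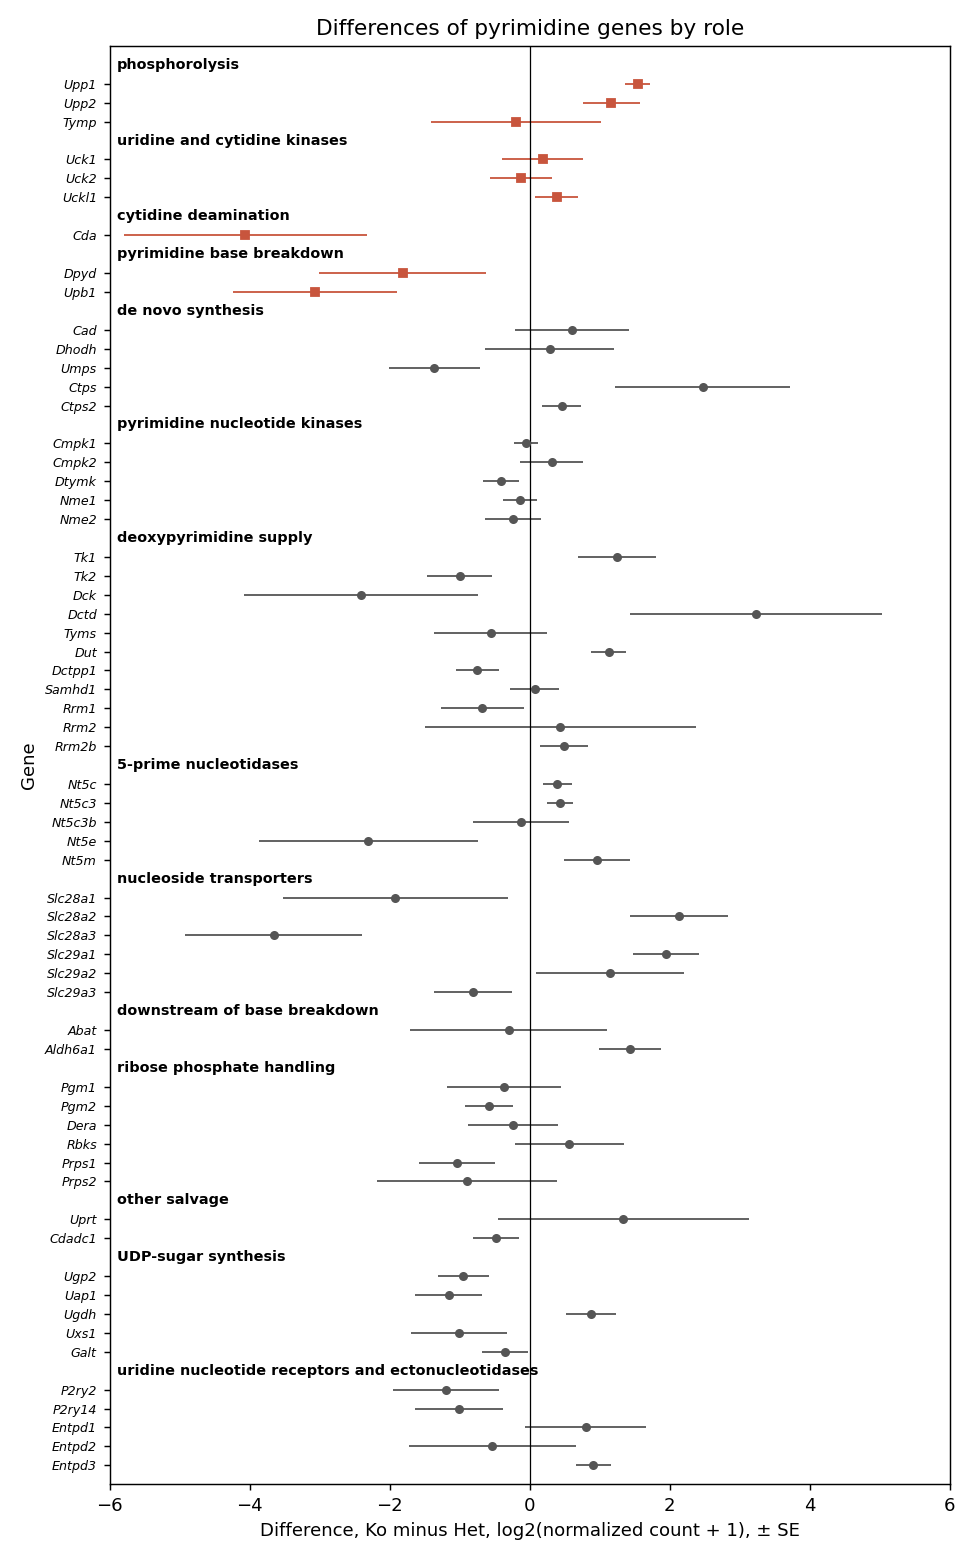
Log2 difference of Ko minus Het, with its SE, for the 9 tested members (squares) and 52 of the 53 other tested pyrimidine genes (circles), grouped by role. Upp1 at 1.55 has one of the shorter error bars, and members at low counts such as Cda and Upb1 have bars more than 1 log2 unit to each side.

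Among genes of deoxypyrimidine supply, 6 of 11 tested differences were positive and 5 negative. Dut encodes the dUTPase that keeps uracil out of DNA. It had normalized counts of 673, 547 and 734 in Het and 1537, 1422 and 1298 in Ko, without overlap. The log2 difference was 1.13 ± 0.25 (SE), with an adjusted p of 0.076 in limma and 0.00223 in DESeq2. Dctpp1, a pyrophosphatase of dCTP, had means of 1210 ± 102 in Het and 756 ± 303 in Ko (SD, n = 3 each; limma adjusted p = 0.327). Of the 10 proliferation markers, 8 had higher means in Ko and none was called by limma, with sums of 287 to 779 in Het and 822 to 1336 in Ko. Ccnb1 was the largest part of each Ko sum, at 3.91, 26.3 and 150 in Het and 448, 675 and 324 in Ko. The other proliferation markers all overlapped between the groups. Cdk1 and Bub1 had lower means in Ko, and Mki67 had means of 21.9 in Het and 25.5 in Ko. The part of proliferating cells in the value of Dut was not tested.

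Nucleoside transporters had 3 positive and 3 negative differences among 6 tested. Slc29a1 encodes the equilibrative transporter ENT1, which carries uridine and other nucleosides across the membrane. Its normalized counts were 149, 125 and 108 in Het and 505, 766 and 304 in Ko, with all Ko values above all Het values. The means differed 4.12-fold, and the log2 difference was 1.95 ± 0.47 (SE; adjusted p = 0.105 in limma, 0.00223 in DESeq2). Slc28a2, a concentrative nucleoside transporter, had means of 66.9 ± 44.7 in Het and 254 ± 59.6 in Ko (SD, n = 3 each; limma adjusted p = 0.213). Slc28a3, also a concentrative transporter and named here because DESeq2 called it lower, overlapped between the groups. It had 497, 50.4 and 209 in Het and 66.9, 3.11 and 8.59 in Ko, with an adjusted p of 0.241 in limma and 0.044 in DESeq2.

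Genes of synthesis and phosphorylation were not separated by limma. In de novo synthesis 4 of 5 differences were positive with a median of 0.46, and Umps, which makes uridine monophosphate, was the negative one at -1.36 ± 0.65 (SE; limma adjusted p = 0.402). Ctps, which makes CTP from UTP, had means of 122 ± 170 in Het and 306 ± 186 in Ko (SD, n = 3 each; limma adjusted p = 0.432). Of the 5 pyrimidine nucleotide kinases 1 difference was positive and 4 were negative, and the smallest limma adjusted p was 0.541 for Dtymk, thymidylate kinase. Both other salvage genes overlapped between the groups, Uprt with a limma adjusted p of 0.805 and Cdadc1 with 0.578.

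Among 5′ nucleotidases, which return nucleotides to nucleosides, 3 of 5 differences were positive. Nt5c3, active on pyrimidine monophosphates, had means of 2804 ± 73.6 in Het and 3854 ± 764 in Ko (SD, n = 3 each; limma adjusted p = 0.336). Nt5m, the mitochondrial form, had 258 ± 96.5 in Het and 503 ± 210.2 in Ko (SD, n = 3 each; limma adjusted p = 0.415). For both, the Ko values lay above the Het values in all libraries, where 18.4% of all tested genes did not overlap in either direction. The gap was narrow for Nt5m, with Ko3 at 319.4 and Het3 at 316.0.

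Downstream of base breakdown, Aldh6a1, the semialdehyde dehydrogenase that also acts in valine breakdown, had means of 282 ± 84.9 in Het and 799 ± 351 in Ko (SD, n = 3 each). Its log2 difference was 1.43 ± 0.44 (SE), with an adjusted p of 0.188 in limma and 0.0233 in DESeq2. Abat, which takes up the amino group of beta-alanine, had 36 to 71 reads a group and a limma adjusted p of 0.954. In ribose phosphate handling, which receives the sugar that uridine phosphorylase releases, 5 of 6 differences were negative with a median of -0.47. The smallest limma adjusted p there was 0.453 for Prps1, which makes the ribose donor of nucleotide synthesis, and it was 0.516 for Pgm2.

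Uridine nucleotides also carry sugars and act as signals outside the cell. In UDP-sugar synthesis 5 of 6 differences were negative, with a median of -0.98. Ugp2, which makes UDP-glucose, had means of 972 ± 166 in Het and 529 ± 203 in Ko (SD, n = 3 each; limma adjusted p = 0.291). Uap1, which makes UDP-N-acetylglucosamine and was called lower by DESeq2 (adjusted p = 0.041), had a limma adjusted p of 0.33, and its highest Het library, at 3734, stood far above the others, at 965 and 1037. The 6 markers of secretory and microfold epithelium, cells rich in glycoproteins, had summed counts of 135216 to 193227 in Het and 10851 to 34199 in Ko, with 5 lower in mean and 4 called by limma. Most of each Het sum was Reg3g, at 113982 to 156514. Their part in the UDP-sugar values was not tested. Of receptors and ectonucleotidases, 2 of 5 differences were positive. Entpd3, which removes phosphates from extracellular nucleotides, had 1947, 1405 and 1032 in Het and 2454, 2629 and 2901 in Ko. Its log2 difference was 0.91 ± 0.25 (SE; adjusted p = 0.142 in limma, 0.0278 in DESeq2). P2ry14, a receptor for UDP-glucose, had a limma adjusted p of 0.54.

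The genes most like Upp1 in pattern were found by the root mean square distance, over the 6 libraries, between log2(normalized count + 1) values centred on each gene's mean, among 12442 genes with a mean of at least 50. This distance uses the same libraries as the choice of Upp1 and is a description. The nearest was Wdr27 at 0.108, with normalized counts of 392, 451 and 401 in Het and 1071, 1271 and 1491 in Ko. Tmsb10, an actin monomer binding protein, followed at 0.184, and its counts are uncertain because of near-identical copies. Next came Cacna1d, a calcium channel subunit, at 0.193, Cmtr1, an mRNA cap methyltransferase, at 0.204, Serf1 at 0.213, Dgkk, a diacylglycerol kinase, at 0.214, Csmd2 at 0.220 and Map1b, a microtubule binding protein, at 0.221. All 8 were higher in each Ko library than in any Het library, by 2.18-fold (Csmd2) to 3.26-fold (Cacna1d) in mean. Upp2 was at rank 328 with a distance of 0.477, and Dut at rank 84 with 0.345. The kinase Uckl1 was at rank 1567, Uck1 at 6480 and Uck2 at 6703, while Dpyd and Upb1 were among the most distant, at 11584 and 11644.

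**Figure D4:**
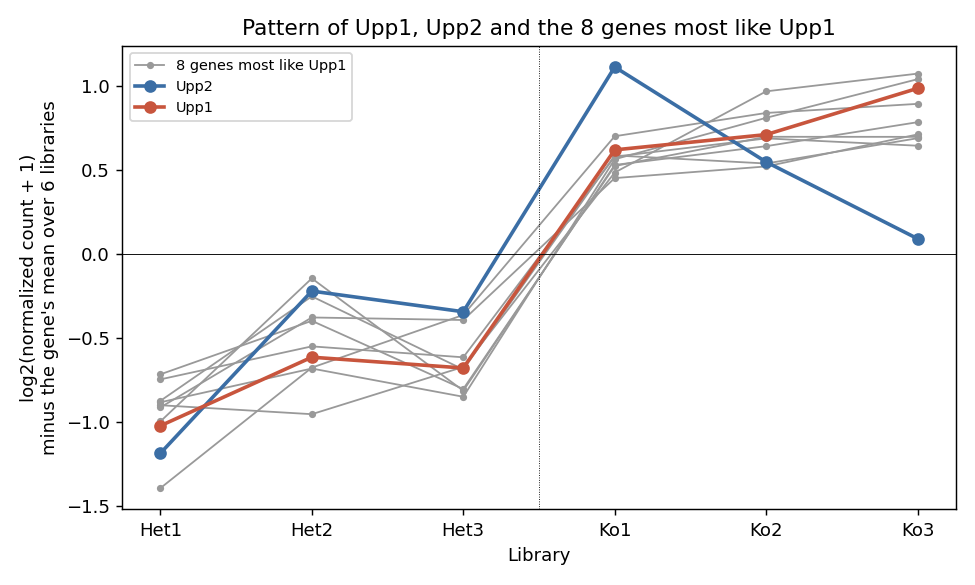
Log2(normalized count + 1) minus the gene's mean over the 6 libraries, for Upp1, Upp2 and the 8 genes nearest to Upp1 (grey). Lines join the values of a gene and carry no order of the libraries. Upp1 and the grey genes are above 0 in all Ko libraries and below 0 in all Het libraries, and Upp2 drops towards 0 in Ko3.

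Upp1 lies on chromosome 11 near Ikzf1, the floxed gene, which is the sixth protein-coding gene from Upp1 on one side in the RefSeq order of GRCm38.p6. None of the matched genes among the 5 on each side of Upp1 had all Ko values above all Het values. Genes beyond Ikzf1 were not examined. On the side of Ikzf1, Abca13 next to Upp1 had means of 238 ± 80.6 in Het and 173 ± 83.6 in Ko (SD, n = 3 each; limma adjusted p = 0.746). Vwc2 had a limma adjusted p of 0.828, Zpbp had means of 135 ± 59.9 and 54.3 ± 26.5 with Ko below Het throughout (SD, n = 3 each; limma adjusted p = 0.49), and Spata48 and 4930512M02Rik were too low to test. On the other side Gm11992 had means of 333 ± 157 and 271 ± 71.7 (SD, n = 3 each; limma adjusted p = 0.885), Sun3 had 3 Ko reads in all (limma adjusted p = 0.451), and Hus1 had 109 ± 57.3 and 32.1 ± 25.7, also without overlap (SD, n = 3 each; limma adjusted p = 0.427). Pkd1l1 was too low to test and Gm40814 was not matched. The means of Ikzf1 were 254 ± 59.7 in Het and 1584 ± 128 in Ko (SD, n = 3 each), a 6.25-fold ratio and a log2 difference of 2.66 ± 0.30 (SE; limma adjusted p = 0.0105).

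**Figure D5:**
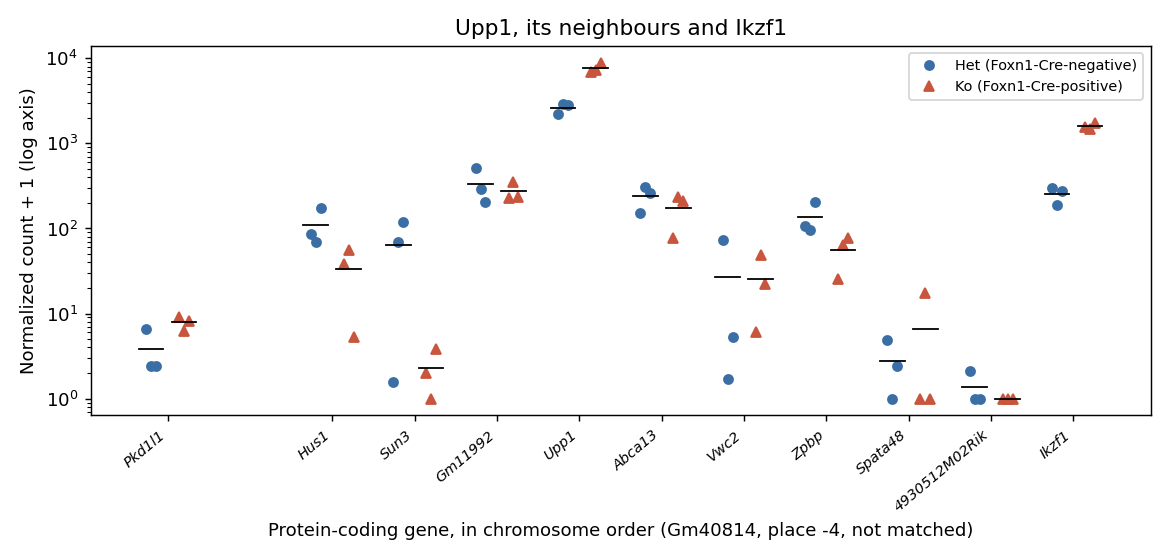
Normalized counts plus 1, on a log axis, of Upp1, the 5 nearest protein-coding genes on each side and Ikzf1, in chromosome order without scale. Circles are Het libraries, triangles Ko libraries and bars group means. Upp1 and Ikzf1 are the genes with Ko values above all Het values by a wide gap, and Hus1 and Zpbp have Ko values below all Het values.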

How the data were processed

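Per the labels' protocols, L1CAM+ cells went from the sorter into a SMART-seq buffer for lysis. STAR 2.7.9a, GRCm39 and DESeq2 are named in the submitters' processing notes. The sources used here give no read counter, annotation release or strandedness. The authors deposited a signal in which each library's gene counts are scaled by a size factor, called normalized counts in the text. All values above 0 (100%) were whole multiples of 1 read within 0.01 reads, and in Het3 and Ko3 3 reads equal 4.33 and 4.30. The authors' deposited comparison lists for each gene a log2 fold change and a p-value, raw and adjusted.

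Symbols matched 55144 of 55471 identifiers. Genes with a mean of at least 10 entered limma 3.58.1 as log2(value + 1) (trend, two-sided, genotype the only term) in R 4.3.3. Log2 differences are on that scale, as differences between means of log2 values, and need not match the ratio of means. For low or uneven genes they can be smaller or larger than in DESeq2. Cda was at -4.06 against -6.27 in DESeq2, and Upb1 at -3.07 against -2.38. An exact permutation test of 3 against 3 cannot go below 0.1. Recovered reads were also tested with edgeR 4.0.16 and DESeq2 1.42.0. Exon lengths and overlaps are GENCODE's for GRCm38, a build other than the authors', and promoters are RefSeq's for GRCm38.p6. The members and the gene lists were chosen with earlier results of these data known. Named were all members, in each list any called gene and the pair of smallest p, 8 genes nearest to Upp1 and 5 neighbours on each side, and genes that DESeq2 or the authors' table called were added after their values were seen. The values of some listed genes are not reported here.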

Additional observations from a re-analysis of the deposited data

How the results depend on the processing

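The 13 alternatives were: pseudocounts of 0.5 and 5, no filter, a mean of at least 50, TMM scaling, edgeR, DESeq2 and leaving out each library. The 158 genes called by limma became 75 with edgeR and 1118 with DESeq2, and ranged from 0 (without Het3) to 116 (without Ko1) with a library left out, falling to 14 without Het2, 56 without Ko2 and 50 without Ko3. The count of members called was 1 and became 2 with DESeq2, which added Cda, and ranged from 0 (without Het3) to 1 with a library left out. The wider pyrimidine genes had none called except 6 with DESeq2 (Dut, Slc29a1, Aldh6a1, Entpd3, Slc28a3 and Uap1). The log2 difference of Upp1 ranged from 1.42 to 1.62 over the 13 alternatives and that of Upp2 from 0.87 to 1.41. Cda ranged from -6.27 with DESeq2 to -2.77 with a pseudocount of 5 and failed the mean of 50, Upb1 from -4.10 to -2.36, Dpyd from -2.99 to -0.24 (without Ko3, and -0.72 with edgeR) and Uckl1 from 0.18 to 0.58. The sign changed in 4 of 12 alternatives for Tymp, and in 2 of 13 each for Uck1 and Uck2, when single libraries were left out. No paired analysis was possible because no column could be tied to a single sample. The replicate numbers are adjacent across the groups, but the labels state no pairing, and any pairing was not taken into account. Depth limits Dpys and Tymp, which rest on few reads. Cda had few reads in Ko and an uneven spread in Het, with 3 reads in Het1, the library with the most reads.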

Other observations

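Purine salvage and breakdown, listed as a comparison with the pyrimidine genes, had 13 genes, all tested. Differences were positive for 5 and negative for 8, with a median log2 difference of -0.33. Limma called none of them, edgeR none and DESeq2 1, Xdh, and at an unadjusted p under 0.05 there were 3 higher and 1 lower (30.8%, against 13.6% of all tested genes, while DESeq2 called 6.34% of all genes). The authors' deposited table called 2 of the 12 with an adjusted p, Ampd3 higher (adjusted p = 0.0105) and Xdh lower (adjusted p = 0.00227), where it called 8.19% of all genes. Xdh encodes xanthine dehydrogenase, which makes uric acid. It had normalized counts of 624, 368 and 509 in Het and 133, 212 and 85.9 in Ko, so all Ko values lay below all Het values. Its log2 difference was -1.86 ± 0.48 (SE; adjusted p = 0.118 in limma, 0.013 in DESeq2). Ampd3, an AMP deaminase, had means of 198 ± 21.3 in Het and 434 ± 109 in Ko (SD, n = 3 each), a log2 difference of 1.10 ± 0.40 (SE; limma adjusted p = 0.268).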
